A study of Homo sapiens with 6 samples.

Results

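The genes described here encode the nuclear part of the mitochondrial respiratory chain, that is the subunits of complexes I to V, cytochrome c and a few relatives that carry the same names. They were the protein-coding rows of the deposited table whose symbols begin with NDUFA, NDUFB, NDUFC, NDUFS or NDUFV and a number, UQCR, COX4 to COX8 or ATP5, or are SDHA to SDHD, CYC1 or CYCS. This rule gave 86 of 23619 genes. Complex I had 36, complex II 4, complex III 10, complex IV 16 and complex V 19 of them, and cytochrome c is encoded by 1. NDUFA4 and its relative NDUFA4L2 are counted with complex IV, to which the NDUFA4 protein is now assigned. ATP5S is counted with complex V by its name only, since it is not a subunit of the enzyme.

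RNA was sequenced from T24 cells, a human line derived from bladder cancer and long established in culture, with the genotype given as wild type in every library. The 3 control libraries carry the treatment label none. For the 3 treated libraries, cells were exposed to Caba-780 at 3.84 µM over 24 h. No label states if a vehicle was added to the controls. Nor do labels tell if replicates come from different cultures, and the spread behind each p-value may therefore be technical.

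The respiratory chain is a set of large enzymes in the inner mitochondrial membrane. Complexes I and II pass electrons from NADH and succinate to ubiquinone, complex III passes them on to cytochrome c, and complex IV passes them to oxygen. Complexes I, III and IV pump protons as they do so, and complex V, the ATP synthase, uses the proton gradient to make ATP. All but complex II combine subunits from nuclear genes with subunits from mitochondrial DNA, and the nuclear transcription factors NRF1 and NRF2 (GABP) are known for binding many promoters of nuclear subunit genes.

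Promoters are shown because most tested genes moved in the same direction without control replicate 3. Whether the letters found bear on that change was not tested. Of the 86 genes, 70 matched a promoter entry of RefSeq (GRCh38.p14) at their own locus. The 250 bases before the annotated start were searched on both strands, using the first listed start in 10 genes that have several. The letters GCATGCGC, the core of the NRF1 site, were present in 13 of these 70 (18.6%), against 3.70% of all 15843 protein-coding promoters of the same length. The letters CCGGAAGT, which ETS factors such as GABP bind, were present in 10 (14.3%), against 5.09% of all. AAGATGGC, a YY1 motif, was found in 1 (1.43%, against 1.39% of all) and TATAAA in 6 (8.57%, against 9.23%). A match is a run of letters and not a shown binding site. The stretches below end at the base before the annotated start and show 4 genes called lower after Caba-780 in the comparison without control replicate 3, followed by CYCS, which was not. Capitals mark GCATGCGC or CCGGAAGT on either strand.
COX5B (chr2:97645912-97646061, plus strand): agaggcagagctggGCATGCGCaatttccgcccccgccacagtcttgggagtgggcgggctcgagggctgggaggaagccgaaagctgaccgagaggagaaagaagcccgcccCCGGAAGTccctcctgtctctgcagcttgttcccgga
NDUFB4 (chr3:120596156-120596335, plus strand): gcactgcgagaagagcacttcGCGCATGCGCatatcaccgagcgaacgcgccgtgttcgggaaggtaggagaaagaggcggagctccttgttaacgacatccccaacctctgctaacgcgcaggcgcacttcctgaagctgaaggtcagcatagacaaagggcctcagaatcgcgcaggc
UQCRQ (chr5:132866522-132866641, plus strand): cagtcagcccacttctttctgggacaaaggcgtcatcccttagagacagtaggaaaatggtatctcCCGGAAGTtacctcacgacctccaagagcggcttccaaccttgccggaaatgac
ATP5MC2 (chr12:53676084-53676203, minus strand): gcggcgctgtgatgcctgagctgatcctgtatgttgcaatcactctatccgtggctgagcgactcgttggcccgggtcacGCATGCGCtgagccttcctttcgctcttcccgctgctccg
CYCS (chr7:25125261-25125440, minus strand): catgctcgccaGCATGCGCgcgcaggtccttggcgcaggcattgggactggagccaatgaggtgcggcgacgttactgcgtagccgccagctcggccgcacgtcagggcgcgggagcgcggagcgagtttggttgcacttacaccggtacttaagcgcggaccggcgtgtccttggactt
COX5B had both motifs. In NDUFB4 the NRF1 letters occurred on both strands, as 2 overlapping matches inside GCGCATGCGC. The stretches of UQCRQ, ATP5MC2 and CYCS had 1 marked match each. Among genes called lower, 7 of 30 with a promoter entry (23.3%) had the NRF1 letters, and among tested genes not called, 6 of 35 (17.1%). The ETS letters were in 5 of 30 and 5 of 35.

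Control replicate 3 was unlike the other 5 libraries. Reads were found in 13627 of its genes, whereas the others had 19467 to 20308 genes with reads. Genes with 1 to 9 reads numbered 638 in it and 5636 to 6100 elsewhere, at a similar total of reads in genes (14591234 against 14649171 to 15983035). The comparison is therefore given with all 6 libraries and without it for the whole set, for each complex and for members named as changed. Of 7 epithelial markers, KRT7, KRT8 and KRT18 were above 5 CPM, that is reads scaled to a fixed library total, as were the mesenchymal genes VIM, CDH2 and FN1. EPCAM was at 0 in 5 libraries and at 38.3 normalized counts in control replicate 3, CDH1 was at 0 in 5 libraries and at 2.69 in treated replicate 1, and KRT5 and KRT19 were not analysed here. The 8 urothelial differentiation markers summed to 16.3 to 18.4 CPM in control and 13.8 to 17.0 in treated libraries, with PPARG and UPK1B above 5 CPM. Leukocyte markers had 0 reads, endothelial and striated muscle markers summed to at most 0.589 and 0.501 CPM, and 3 fibroblast markers to 14.7 to 32.7 in control against 8.44 to 16.1 in treated libraries. Their part in the results was not tested.

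Of the 86 genes, 80 reached 10 normalized counts in 3 or more libraries and were tested, in both comparisons. Normalized counts are reads per gene divided by a size factor of the library. Divided by gene length in kb and averaged over 6 libraries, the level was highest for ATP5F1B, the catalytic beta subunit of ATP synthase, at 4624 per kb. NDUFS5, an accessory subunit of complex I, followed at 3471 per kb, and COX8A, a small subunit of complex IV, at 2500 per kb. UQCRH, the hinge protein of complex III, led its complex at 1593 per kb, and CYC1, which holds the heme of cytochrome c1, stood at 1518 per kb. The lowest tested genes were NDUFA13 at 9.94 per kb and ATP5S at 13.7 per kb. Median levels per kb were 319 in complex I, 394 in complex II, 499 in complex III, 743 in complex IV and 394 in complex V. Genes of 1 enzyme differed more than these medians did, from 9.94 to 3471 per kb in complex I and from 189 to 2500 in complex IV.

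**Figure D1:**
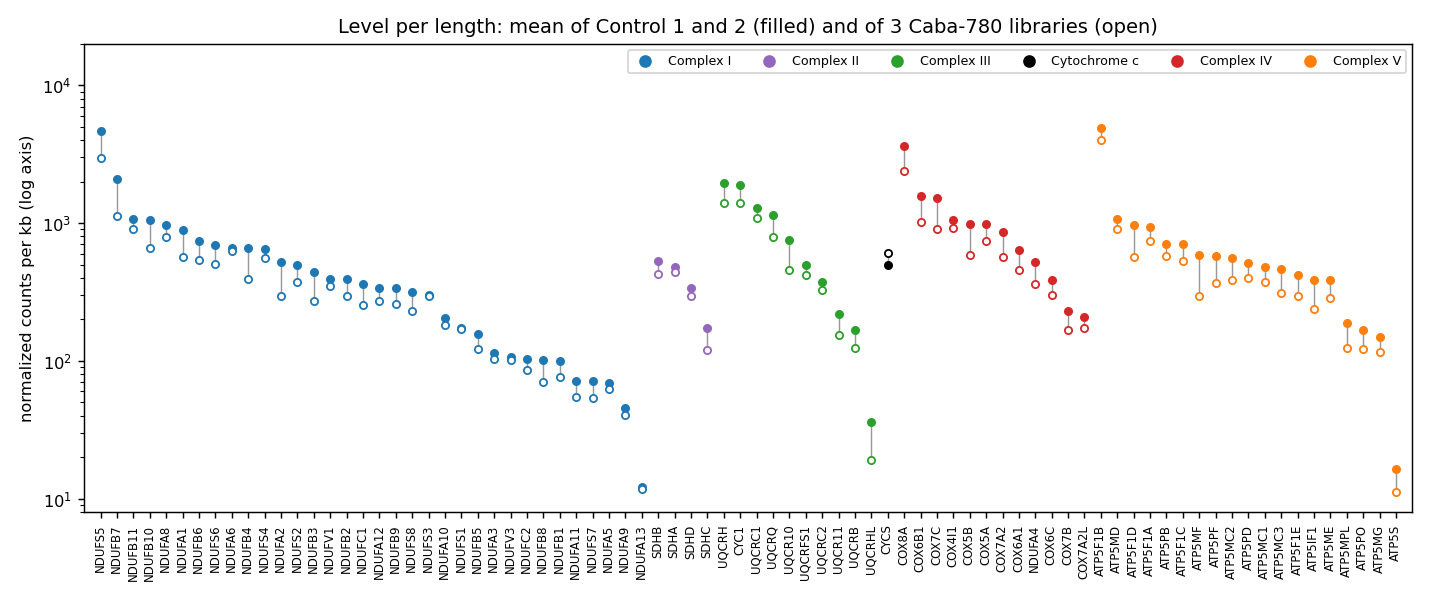
Level of each tested gene in normalized counts per kb of gene length (log axis), as the mean of control replicates 1 and 2 (filled) and of the 3 Caba-780 libraries (open), grouped and coloured by complex and ordered by level within it. ATP5F1B, with a mean of 4624 per kb over 6 libraries, and NDUFS5, with 3471, stand highest, and CYCS is the gene whose open point lies above its filled one.

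The 6 genes not tested had few reads, given here in the order control replicates 1 to 3. Muscle- and testis-type isoforms of complex IV were near 0: COX7A1, the heart and skeletal muscle form, had 2, 1 and 0 reads in control and 2, 1 and 0 in treated libraries. COX6B2, the testis form, had 1, 1 and 0 reads in control and 0 in each treated library, and COX8C, also known from testis, had 2 reads in 1 treated library and 0 in the other 5. The ubiquitous isoforms COX7A2, COX6B1 and COX8A thus had far more reads than these muscle and testis forms. COX7A2L, a relative of COX7A2, was also expressed, with 1121, 1218 and 987 reads in control and 980, 981 and 1111 in treated libraries. NDUFA4L2, a hypoxia-induced relative of NDUFA4, had 1, 3 and 0 reads in control and 24, 8 and 9 in treated libraries. It was higher in all 3 treated libraries, at a level that failed the filter. With no filter and without control replicate 3 its log2 change was 2.12 ± 0.68 (SE; limma adjusted p = 0.0141), a fitted value that depends on the pseudocount at these counts, where 10.2% of all genes were called higher. With 6 libraries it did not pass (adjusted p = 0.295). Subunit genes of complex I were also among the sparse ones. NDUFV2, a core subunit, had 11, 9 and 0 reads in control and 8, 9 and 10 in treated libraries. NDUFA7 had 2, 4 and 0 against 6, 14 and 4. In the annotation, 28.4% of the exonic bases of NDUFV2 and 33.5% of those of NDUFA7 also belong to another gene, and how reads there were counted is not given in the sources used here.

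Nuclear respiratory chain transcripts were lower in Caba-780 libraries than in control replicates 1 and 2. Without control replicate 3, 40 of the 80 tested genes fell and 0 rose at a limma adjusted p under 0.05, where 15.2% of 13708 genes fell and 17.2% rose. The log2 change was negative in 79 of 80, with a median of -0.42 and a range of -0.98 to 0.27, against a median of -0.02 over all genes tested. CYCS, which encodes cytochrome c, was the only positive value. The treated libraries did not overlap control replicates 1 and 2 in 51 genes that were lower and 1 that was higher, where 28.4% and 28% of all genes tested showed this. Of the 40 calls, 37 were made by limma, edgeR, DESeq2 and limma-voom alike.

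With all 6 libraries, 0 of 80 genes passed in either direction by limma, where 0.26% of 13847 genes fell and 0.744% rose. At an unadjusted limma p under 0.05, 14 were lower and 0 higher. The share of all genes at that p is not given here, so this count has no background to be read against. The edgeR test and limma-voom also called 0, where they called 0.246% and 0.289% of all genes lower, and DESeq2 called 6 lower, namely NDUFB4, SDHC, COX7A2, COX7C, ATP5MC3 and ATP5MPL, where it called 3.57% of all genes lower. The median log2 change was -0.34, against 0.10 over all genes, with 63 of 80 negative. By complex it was -0.21 in complex I, -0.38 in II, -0.33 in III, -0.20 in IV and -0.51 in V, all with 0 genes past the limma threshold. The groups did not overlap in 23 genes that were lower and 0 that were higher, against 13.4% and 17.9% of all genes.

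The 2 remaining controls also differed. Control replicate 2 was above replicate 1 in 78 of the 80 genes, and the median gene stood 0.16 above their mean in replicate 2 and 0.16 below it in replicate 1 (log2), while the median over all tested genes was 0.00 in both. The treated libraries stood at -0.42, -0.54 and -0.24 on this scale, all below control replicate 1, against -0.01, -0.00 and -0.01 over all genes. Control replicate 3 had a median of -0.17, against -0.19 over all genes, with single members from -5.09 to 2.15. When control replicate 2 was also left out, 4 of the 40 calls were kept (NDUFA2, ATP5MF, ATP5F1D and ATP5IF1), all 40 stayed negative, and 6.37% of 13445 genes were called lower. When control replicate 1 or a treated library was left out instead, 31 to 37 of the 40 were kept. Measured as a share of all reads in genes, the 86 genes took 0.769%, 0.919% and 0.780% in control and 0.693%, 0.634% and 0.765% in treated libraries. Every treated share was below every control share, with treated replicate 3 close to control replicate 1.

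**Figure D2:**
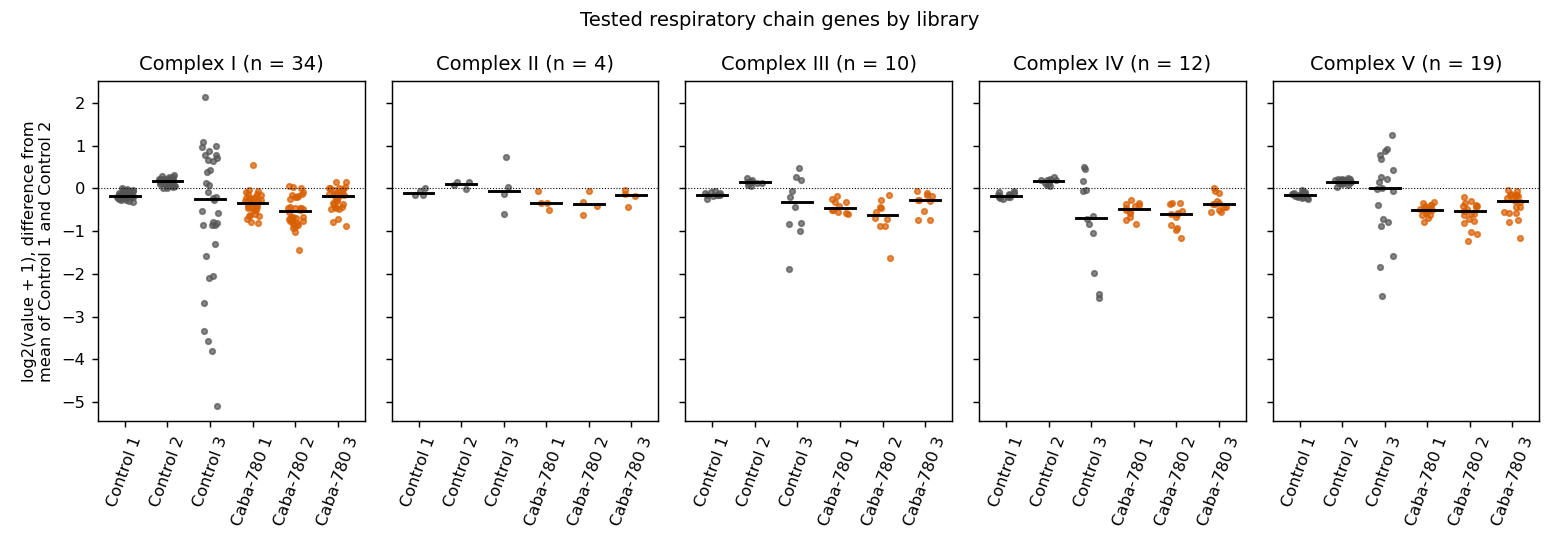
Log2(value + 1) of each tested gene of complexes I to V in each library, as the difference from the mean of control replicates 1 and 2, in 1 panel per complex. Points are genes (grey control, orange Caba-780) and bars are medians. The points of control replicate 3 spread from -5.09 to 2.15, whereas the treated libraries sit mostly below 0 with medians of -0.42, -0.54 and -0.24 over all 80 tested genes, CYCS included.

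Complex I showed falls in both of its arms without control replicate 3, with 12 of 34 tested genes lower, 0 higher and a median log2 change of -0.37. The membrane arm, which pumps protons, had 8 of 20 lower and a median of -0.41. The peripheral arm, which holds the NADH site and the iron-sulfur clusters, had 4 of 14 lower and a median of -0.20. By role, 2 of 6 tested core subunits were lower (median -0.29) and 10 of 28 accessory subunits (median -0.37). The NDUFB group of the distal membrane arm had 5 of 11 lower and a median of -0.46. In that fit 15.2% of all genes tested were lower, and differences between these groups were not tested.

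NDUFB7, an accessory subunit of the membrane arm (chr19:14566078-14572062, minus strand, GRCh38), had 911, 1308 and 107 normalized counts in control and 626, 405 and 776 in treated libraries. All treated values lay between control replicate 3 and the other controls. It fell by 0.91 ± 0.24 (log2, SE) without control replicate 3 (limma adjusted p = 0.0108), and the change was 0.21 with 6 libraries (adjusted p = 0.917). NDUFA2, an accessory subunit of the peripheral arm (chr5:140638740-140647785, minus strand), had 692, 853 and 178 in control and 464, 381 and 468 in treated libraries. Here too control replicate 3 was the lowest library, and the mean fell by 43.3% against control replicates 1 and 2. The log2 change of NDUFA2 was -0.82 ± 0.16 (limma adjusted p = 0.000262), and it was the only complex I call kept without control replicate 2 (adjusted p = 0.0238).

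NDUFB4, another membrane arm subunit (chr3:120596309-120602500, plus strand), had 1039, 1445 and 1074 in control and 806, 740 and 668 in treated libraries. The groups did not overlap with all 6 libraries in, and the log2 change was -0.73 ± 0.16 without control replicate 3 (limma adjusted p = 0.000708) and -0.67 with it (adjusted p = 0.187). NDUFB3 had 425, 542 and 820 in control and 278, 254 and 374 in treated libraries, again with every treated library below every control (log2 change -0.69 ± 0.18, adjusted p = 0.0045). NDUFS5, the complex I gene with the highest level per kb, had 2315, 2831 and 1413 in control and 1632, 1379 and 1842 in treated libraries. It fell by 0.67 ± 0.15 without control replicate 3 (limma adjusted p = 0.000928), and control replicate 3 lay among the treated libraries. With 6 libraries the change was -0.12 in NDUFA2 (adjusted p = 0.928), -0.94 in NDUFB3 (adjusted p = 0.208) and -0.39 in NDUFS5 (adjusted p = 0.533). Without control replicate 2, the 12 calls of complex I had adjusted p from 0.0238 to 0.492.

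At the other end were core subunits. NDUFS1, the largest subunit, which carries iron-sulfur clusters, had 2029, 2197 and 3347 in control and 1995, 2156 and 2134 in treated libraries. Treated values fell within the range of control replicates 1 and 2 or just under it, with a log2 change of -0.01 ± 0.13 (limma adjusted p = 0.958). NDUFS3, also a core subunit, had 1011, 1196 and 1192 in control and 1076, 953 and 1221 in treated libraries, and the groups overlapped (log2 change -0.03 ± 0.15, adjusted p = 0.907).

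Complex II, succinate dehydrogenase, also works in the citric acid cycle and has all of its subunits encoded in the nucleus. Of its 4 genes only SDHC, a membrane anchor that helps bind heme and ubiquinone, fell without control replicate 3, where 15.2% of all genes did. SDHC (chr1:161314257-161375340, plus strand) had 2320, 2566 and 2212 in control and 1728, 1572 and 1803 in treated libraries, so that every treated library was below every control. Its log2 change was -0.52 ± 0.14 without control replicate 3 (limma adjusted p = 0.00442), -0.48 with 6 libraries (adjusted p = 0.22) and had an adjusted p of 0.0999 without control replicate 2.

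SDHA, the flavin-bearing catalytic subunit, had 4087, 4001 and 2651 in control and 3877, 3241 and 3969 in treated libraries, with a log2 change of -0.14 ± 0.14 (adjusted p = 0.473). SDHB, the iron-sulfur subunit, had 1170, 1438 and 1332 in control and 1019.8, 970.2 and 1151 in treated libraries. All treated values of SDHB were below all controls, but the change of -0.31 ± 0.15 did not pass (limma adjusted p = 0.105). SDHD, the other anchor, had 854, 1066 and 1591 in control and 748, 917 and 866 in treated libraries, which overlapped (-0.18 ± 0.15, adjusted p = 0.38). The median of complex II was -0.25 without control replicate 3 and -0.38 with it.

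In complex III, 7 of 10 genes fell and 0 rose without control replicate 3, with a median log2 change of -0.47. Of all genes tested in that fit, 15.2% fell and 17.2% rose. The genes that fell were CYC1 and the small accessory subunits UQCR10, UQCR11, UQCRB, UQCRH and UQCRQ, with UQCRHL, a near copy of UQCRH whose reads may be shared with it. Without UQCRHL the count was 6 of 9. UQCR10 (chr22:29767369-29770413, plus strand) had 617, 863 and 365 in control and 496, 397 and 435 in treated libraries, and fell by 0.73 ± 0.17 (limma adjusted p = 0.00132). Its treated libraries lay below control replicates 1 and 2 and above replicate 3.

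UQCRQ had 1507, 1848 and 1457 in control and 1109, 902 and 1475 in treated libraries, with a log2 change of -0.55 ± 0.17 (adjusted p = 0.0154). Treated replicate 3 was close to the controls. UQCR11 had 417, 520 and 645 in control and 347, 319.6 and 321 in treated libraries, all below all controls (-0.50 ± 0.16, adjusted p = 0.0203). UQCRH had 2471, 3069 and 2038 in control and 1946, 1709.5 and 2228 in treated libraries, with a change of -0.50 ± 0.14 (limma adjusted p = 0.00986). UQCRHL had 74.7, 81.3 and 20.3 against 54.7, 24.5 and 46.1, with a change of -0.96 ± 0.32 (adjusted p = 0.0229).

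CYC1 had 3443, 4061 and 2117 in control and 2982, 2279.9 and 3102 in treated libraries. The treated values lay below control replicates 1 and 2 and above replicate 3, and the change was -0.44 ± 0.15 without that replicate (limma adjusted p = 0.0235) and -0.16 with it. The Rieske iron-sulfur protein gene UQCRFS1 had 1537, 1900.3 and 1649 in control and 1362, 1417 and 1628 in treated libraries, with a change of -0.22 ± 0.14 (adjusted p = 0.25). UQCRC2, a core scaffold subunit, had 1793, 2101 and 2226 in control and 1642, 1732 and 1746 in treated libraries. All 3 treated values of UQCRC2 were below all controls, at a change of -0.19 ± 0.14 that did not pass (adjusted p = 0.316). With 6 libraries the changes of UQCR10, UQCRQ, UQCR11, UQCRH and UQCRHL were -0.39, -0.49, -0.66, -0.35 and -0.33, with adjusted p-values of 0.57, 0.35, 0.219, 0.448 and 0.799. None of the 7 calls of complex III was kept without control replicate 2 (adjusted p from 0.115 to 0.442).

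CYCS differed in direction from the complexes it connects. Cytochrome c carries electrons between complexes III and IV and, once released from mitochondria, takes part in apoptosis. CYCS (chr7:25120091-25125361, minus strand) had 2106, 2351 and 3644 in control and 2387, 2754 and 2920 in treated libraries. All treated values were above control replicates 1 and 2 and below replicate 3. The log2 change was 0.27 ± 0.14 without control replicate 3 (limma adjusted p = 0.141) and 0.03 with it, and neither passed. When libraries were scaled by their total reads instead, the change was 0.37 (adjusted p = 0.0435), the only one of the 80 genes called higher in that setting, where 21.5% of all genes were.

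In complex IV, 9 of 12 tested genes fell and 0 rose without control replicate 3, at a median log2 change of -0.50. Over all genes tested in that fit, 15.2% fell and 17.2% rose. COX5B, a subunit on the matrix side (chr2:97646040-97648383, plus strand), had 1251, 1608 and 795 in control and 792, 634 and 1104 in treated libraries. Control replicate 3 lay among the treated values, and the change was -0.79 ± 0.19 without it (limma adjusted p = 0.0029) and -0.51 with it. COX7C (chr5:86617904-86620962, plus strand), a small membrane subunit, had 2594, 3429 and 4075 in control and 1862, 1557 and 2039 in treated libraries. Every treated library was below every control, and COX7C fell by 0.72 ± 0.15 (limma adjusted p = 0.000533), a fall of 39.6% in the mean against control replicates 1 and 2. With 6 libraries the change of COX7C was -0.87 (adjusted p = 0.143). Of the 86 genes, 74 had a negative log2 fold change in the authors' deposited table. In that same authors' deposited table COX7C was the only one of the 86 genes with an adjusted p under 0.05, at a log2 fold change of -0.89 and an adjusted p of 0.0356, where 1.2% of all genes were lower and 2.35% higher by that rule.

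COX8A (chr11:63974607-63976543, plus strand) had 1733, 1928 and 329 in control and 1237, 931 and 1447 in treated libraries. The change was -0.62 ± 0.16 without control replicate 3 (limma adjusted p = 0.00385) and 0.20 with it, so its direction rests on that library. COX6B1, a subunit on the intermembrane side that helps form the dimer, had 1273, 1694 and 372 in control and 876, 966 and 1034 in treated libraries. It fell by 0.62 ± 0.15 without control replicate 3 (limma adjusted p = 0.00251), and the change was 0.04 with it. COX6A1 followed the same course, with 760.5, 949 and 142 in control and 614, 586 and 627 in treated libraries (-0.48 ± 0.15, adjusted p = 0.0157, and 0.38 with 6 libraries).

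COX7A2, the ubiquitous isoform, had 1438, 1875 and 2305 in control and 1102, 899.5 and 1280.2 in treated libraries. It fell by 0.60 ± 0.16 (limma adjusted p = 0.00496), with every treated library below every control. Its relative COX7A2L, a supercomplex assembly factor, had 1087, 1253 and 1113 in control and 878, 925 and 1090.7 in treated libraries, with a change of -0.28 ± 0.15 (adjusted p = 0.149). NDUFA4 had 1570.5, 2152 and 2069 in control and 1412, 1211 and 1256 in treated libraries, all below all controls (-0.51 ± 0.15, adjusted p = 0.0102). COX7B had 572, 817 and 661 against 537, 426 and 561, also with no overlap (-0.44 ± 0.17, adjusted p = 0.0472).

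COX4I1, the ubiquitous form of the regulatory subunit 4, was the complex IV gene with the change nearest 0. It had 4567, 5501 and 3194 in control and 4171, 3972 and 5081 in treated libraries, which overlapped (-0.19 ± 0.14, limma adjusted p = 0.31). COX5A also fell (-0.38, adjusted p = 0.0421), while COX6C did not pass (-0.38, adjusted p = 0.0644). With 6 libraries the changes of COX7A2, NDUFA4, COX7B, COX5A and COX5B were -0.76, -0.57, -0.42, -0.14 and -0.51, with adjusted p-values of 0.207, 0.224, 0.375, 0.785 and 0.478. None of the 9 calls of complex IV was kept without control replicate 2 (adjusted p from 0.0551 to 0.617).

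**Figure D3:**
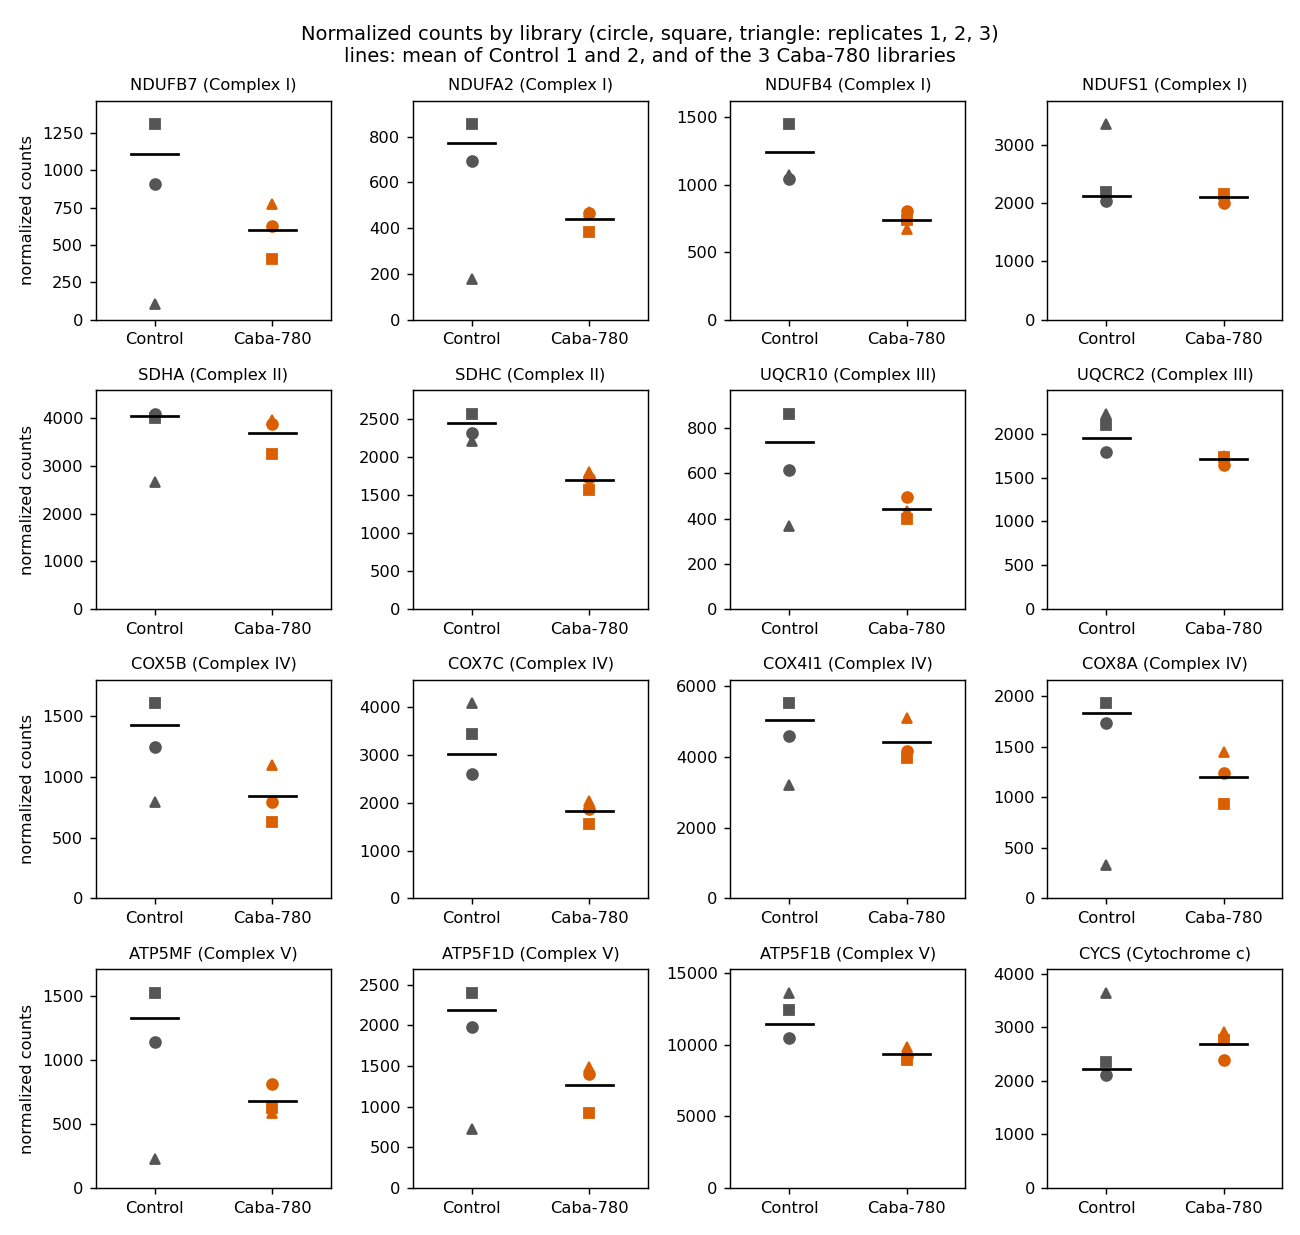
Normalized counts of selected genes in control (grey) and Caba-780 libraries (orange), with circles, squares and triangles for replicates 1, 2 and 3 and lines for the mean of control replicates 1 and 2 and of the 3 treated libraries. Control replicate 3 lies far below the other controls in NDUFB7, COX8A and ATP5MF, and above them in COX7C and CYCS.

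In complex V, 11 of 19 genes fell and 0 rose without control replicate 3, with a median log2 change of -0.46. The shares over all genes tested in that fit were 15.2% lower and 17.2% higher. The 11 include the inhibitor gene ATP5IF1 and also ATP5S, which is not a subunit of the enzyme. The F1 part, subunits alpha to epsilon, had 3 of 5 lower (median -0.41), namely ATP5F1C, ATP5F1D and ATP5F1E. The genes of its alpha and beta subunits, ATP5F1A and ATP5F1B, were not called. The peripheral stalk had 2 of 4 lower (median -0.41) and the membrane-embedded Fo part 4 of 8 (median -0.47). ATP5MF, a small Fo subunit (chr7:99448475-99466331, minus strand), had 1138, 1525 and 228 in control and 814, 623 and 589 in treated libraries. It fell by 0.98 ± 0.16 without control replicate 3 (limma adjusted p = 4.67e-05), the most negative change of the 80, and its mean fell by 49.3%. The treated values lay above control replicate 3, and with 6 libraries the change of ATP5MF was -0.14 (adjusted p = 0.93).

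ATP5F1D, the delta subunit of the central stalk (chr19:1241746-1244826, plus strand), had 1976, 2399 and 724 in control and 1403, 921 and 1483 in treated libraries. It fell by 0.81 ± 0.17 (limma adjusted p = 0.00115). ATP5IF1, which encodes the inhibitor that blocks ATP hydrolysis when the enzyme runs in reverse (chr1:28236109-28246906, plus strand), had 844, 882 and 466 in control and 576, 421 and 579 in treated libraries. Its change was -0.73 ± 0.16 (limma adjusted p = 0.000924), and the inhibitor gene thus fell together with genes of the enzyme it inhibits. ATP5PF, coupling factor 6 of the peripheral stalk, had 1066, 1282 and 895 in control and 824, 765 and 673 in treated libraries. Every treated value of ATP5PF was below every control (-0.64 ± 0.15, adjusted p = 0.0018).

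The proton-carrying c ring is built from a peptide that ATP5MC1, ATP5MC2 and ATP5MC3 encode with the same mature sequence and different targeting sequences. ATP5MC3 had 2759, 3564 and 3161 in control and 2198, 1834 and 2329.7 in treated libraries, with no overlap (-0.57 ± 0.15, limma adjusted p = 0.00368). ATP5MC2 had 1984, 2459 and 615 in control and 1616, 1526 and 1478 in treated libraries, with a change of -0.52 ± 0.14 without control replicate 3 (adjusted p = 0.00554) and 0.09 with it. ATP5MC1 had 1158, 1361 and 723 in control and 960.7, 822 and 1151 in treated libraries and did not pass (-0.37 ± 0.15, adjusted p = 0.0639). All 3 genes were thus lower than control replicates 1 and 2 in each treated library, and in 2 of them the change passed.

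ATP5F1B (chr12:56638175-56646068, minus strand) had 10484, 12395 and 13610.1 in control and 9194, 8936 and 9803 in treated libraries. The groups did not overlap, but the change of -0.29 ± 0.14 did not pass (limma adjusted p = 0.0972). ATP5PB, subunit b of the peripheral stalk, had 2120.4, 2649 and 4463 against 1663, 2044 and 2133 (-0.29 ± 0.15, adjusted p = 0.129). ATP5MD, a small accessory subunit that helps form enzyme dimers, had 830.3, 1136 and 1768 against 772, 795 and 942 (-0.22 ± 0.16, adjusted p = 0.294). ATP5PB and ATP5MD had the changes of complex V nearest 0, and in both genes the highest treated value lay above control replicate 1. With 6 libraries the changes of ATP5F1D, ATP5IF1, ATP5PF and ATP5MC3 were -0.28, -0.43, -0.51 and -0.58, with adjusted p-values of 0.775, 0.508, 0.275 and 0.206. Without control replicate 2, ATP5MF, ATP5F1D and ATP5IF1 remained called, and the 11 calls had adjusted p from 0.00678 to 0.562.

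**Figure D4:**
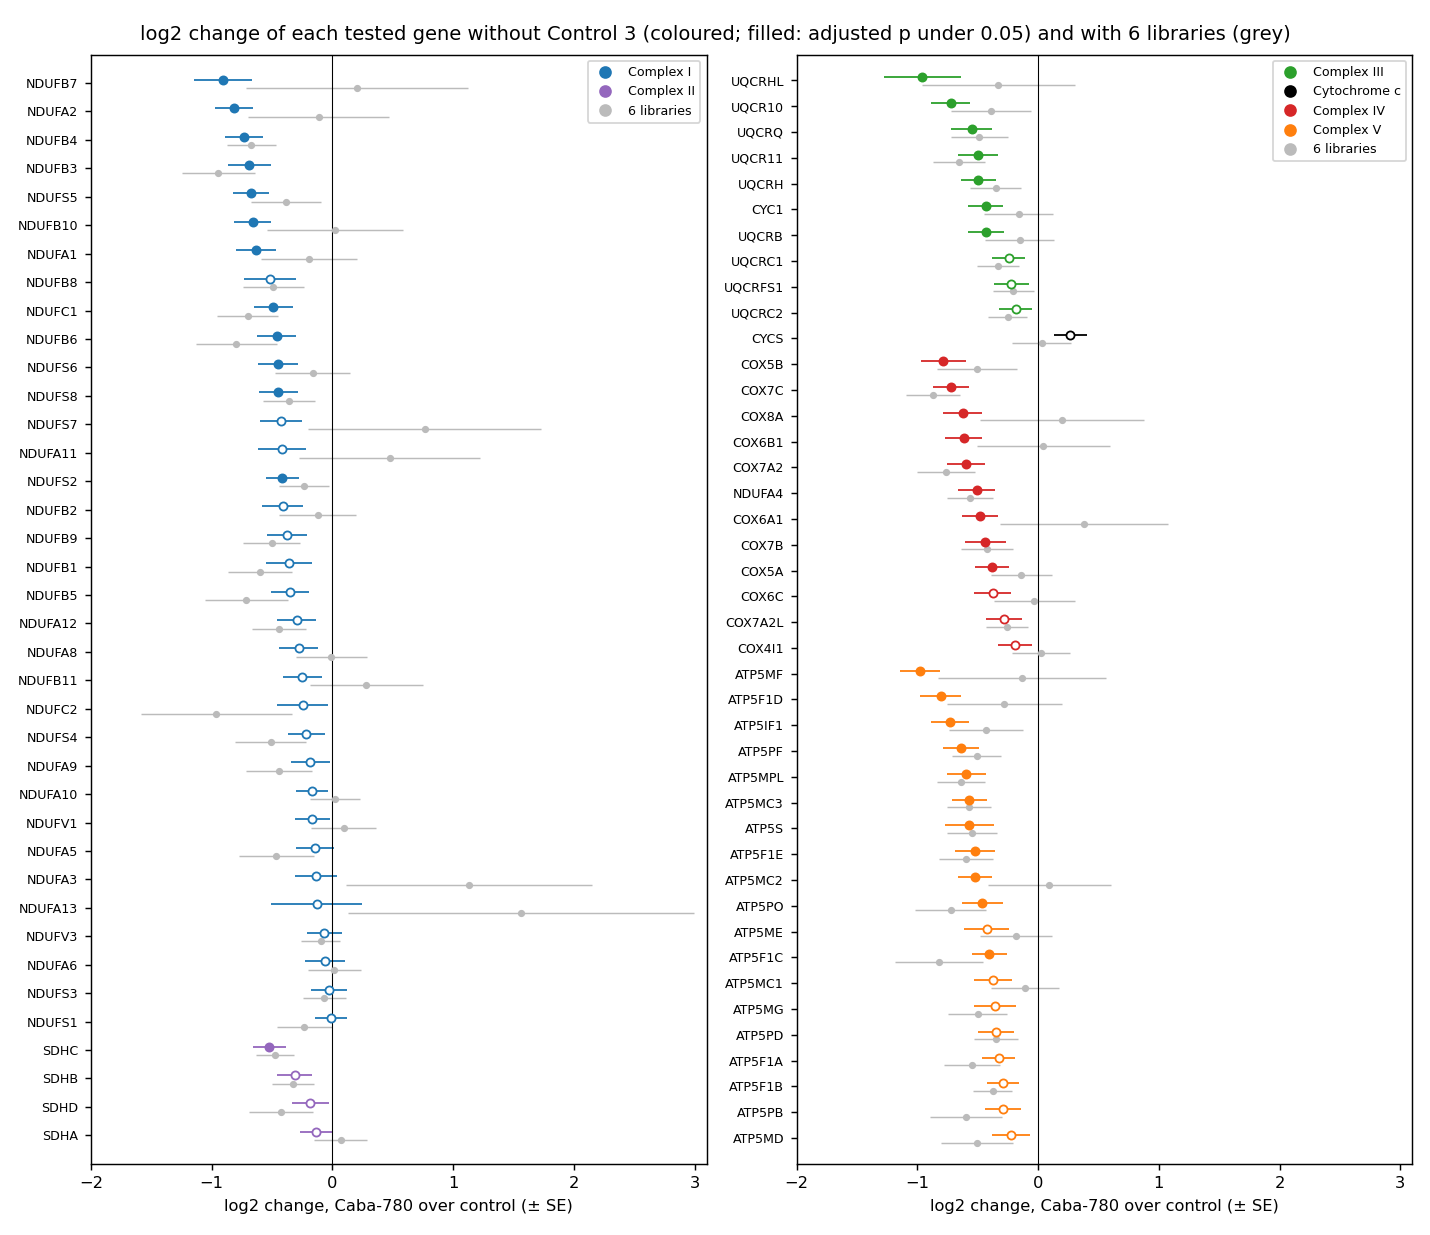
Log2 change of each tested gene, Caba-780 over control, with its SE, grouped by complex. Coloured points are from the fit without control replicate 3, filled where the adjusted p was under 0.05 (40 of 80), and grey points are from the fit with 6 libraries, where 0 passed.

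Short genes fell more often. Across the 80 genes, the log2 change without control replicate 3 was less negative in longer genes (Pearson r = 0.43, Spearman rho = 0.44 with log2 length, n = 80 genes that share 5 libraries). Of the 20 shortest genes, 507 to 1451 bases long, 14 fell, at a median change of -0.49, and all tested genes in that length range fell in 18.2% of cases, at a median of -0.24. In the next 20, up to 2475 bases, 14 fell (median -0.53), against 23.5% of all tested genes of those lengths. From 2615 to 4457 bases 6 of 20 fell (median -0.37), against 18.2%, and from 4523 to 14160 bases 6 of 20 (median -0.30), against 11.9%. The median length was 2545 bases among the members and 4849.5 among all tested genes. When each library was centred within 10 bins of gene length, 31 of 80 genes were lower, 28 of them among the 40, and 15.7% of all genes.

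Control replicate 3 also varied with base composition. Its log2 ratio to the mean of control replicates 1 and 2 fell with the GC content of the transcript (r = -0.65, rho = -0.62, n = 80 genes). The log2 ratio was under -2 in 10 genes, whose median GC content was 58.7%, against 47.5% over all 80. In 16 genes the change had opposite signs with and without this library, and 6 of those were among the 40 calls. When libraries were centred within 10 bins of GC content, 44 of 80 genes were lower without control replicate 3, 38 of them among the 40, where 18% of all genes were lower. With 6 libraries and this centring ATP5F1D and ATP5PF were lower, where 3.24% of all genes were.

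**Figure D5:**
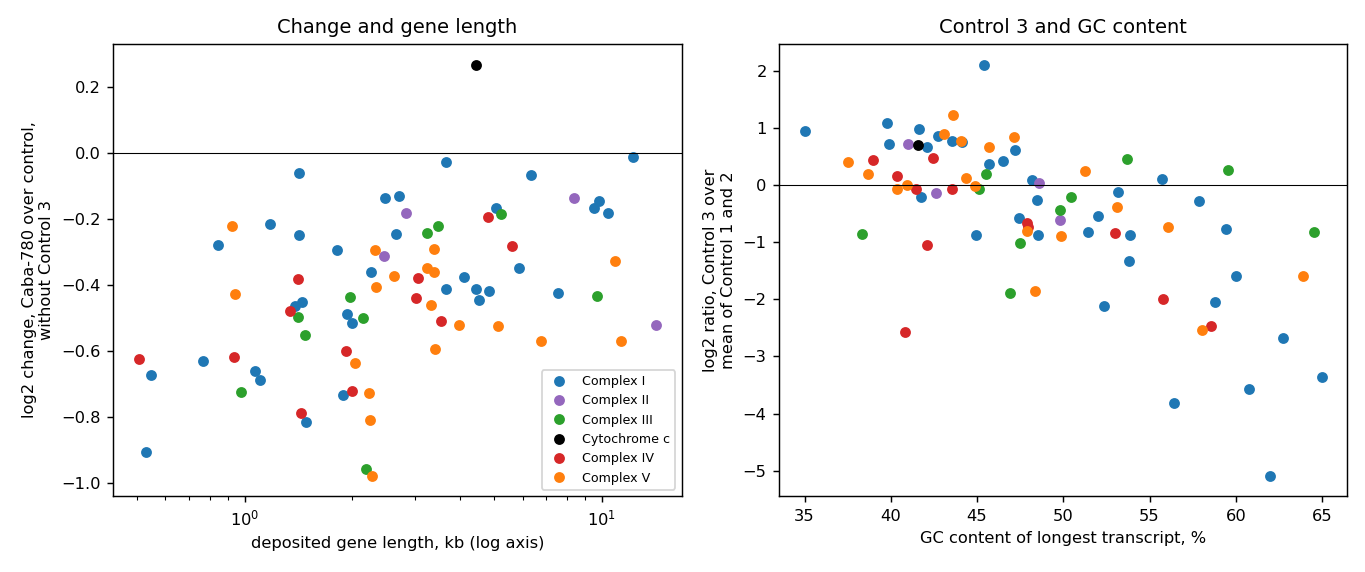
Left, log2 change without control replicate 3 against deposited gene length in kb (log axis). Right, log2 ratio of control replicate 3 to the mean of control replicates 1 and 2 against GC content of the longest transcript in percent. Points are the 80 tested genes; r is 0.43 on the left and -0.65 on the right.

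Of 86 genes, 47 share exonic bases with another gene in the annotation, 33 of them over 10% of their bases, and ATP5ME has the highest share at 61.6%. A further 27 rows of the table carry a matching name with another biotype, 23 of them processed pseudogenes, so reads from near-identical copies may be split. These values were not used to choose or leave out genes.

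Lists of genes around the respiratory chain held calls at shares near those of all genes. Without control replicate 3, 24 of 127 tested genes fell (18.9%) and 14 rose (11%), where 15.2% and 17.2% of all genes did. With 6 libraries, limma, edgeR and limma-voom called 0 of the 128 tested genes of the lists that follow. DESeq2 called 5 lower and 2 higher, where it called 3.57% of all genes lower and 5.26% higher. At an unadjusted limma p under 0.05, 14 of the list genes were lower and 8 higher, with no share of all genes given beside them. The changes given are those without control replicate 3 unless stated. With 6 libraries the falls of NDUFAF8, SLC25A10 and DHODH turned positive (0.14, 0.74 and 0.13). In each of these genes control replicate 3 lay below every treated library. The other called genes named here kept their sign, though at only -0.04 in NDUFAF3 and -0.06 in POLRMT. Of 19 tested assembly factors of complex I, 4 fell and 2 rose, against 15.2% and 17.2% of all genes. NDUFAF3 (629, 722 and 111 in control against 384, 328 and 371) fell by 0.90 (limma adjusted p = 7.36e-05) and NDUFAF8 by 0.68 (adjusted p = 0.0288). NDUFAF6 rose by 0.61 (227, 228 and 337 against 354, 319.6 and 372, adjusted p = 0.00684) and NDUFAF5 by 0.54 (adjusted p = 0.0177). Of 4 factors of complex II, SDHAF3 fell by 0.56 (limma adjusted p = 0.0231). Of 6 factors of complex III, UQCC2 fell by 0.71 (adjusted p = 0.00283) and LYRM7 by 0.53 (adjusted p = 0.018), while TTC19 rose by 0.36 (adjusted p = 0.0388).

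Of 22 tested assembly factors of complex IV, 6 fell and 3 rose, against 15.2% and 17.2% of all genes. COA3, which stabilizes newly made COX1, had 539, 681 and 747 in control and 289, 280.04 and 341 in treated libraries. It fell by 1.00 ± 0.17 (limma adjusted p = 3.92e-05), with no overlap of the groups. COX16 fell by 0.93 (adjusted p = 0.037), and COA6 and COA7 rose by 0.50 (adjusted p = 0.031) and 0.42 (adjusted p = 0.0331). Of the assembly factors of complex V, ATPAF1 (-0.06, adjusted p = 0.778) and ATPAF2 (-0.19, adjusted p = 0.372) did not pass and FMC1 was not tested.

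The 13 subunits encoded in mitochondrial DNA varied widely between libraries, from 2.24% to 4.21% of reads in control and from 1.22% to 3.01% in treated libraries. MT-CO1, the catalytic subunit of complex IV, had 105481, 92239 and 193089 in control and 54672, 77413 and 36993 in treated libraries, and fell by 0.87 ± 0.25 (limma adjusted p = 0.0231). All treated values were below all controls. MT-ND6, the complex I subunit encoded on the other strand of the mitochondrial genome, rose by 0.87 ± 0.19 (2455, 2096 and 7284 against 4010.3, 5755 and 3096, adjusted p = 0.00286). The median over the 13 was 0.02 without control replicate 3 and -0.29 with it, and the other 11 did not pass.

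Among 19 tested regulators of mitochondrial biogenesis and gene expression, 2 fell and 4 rose, near the 15.2% and 17.2% of all genes. NRF1, the factor whose core motif is marked above, had 363, 356 and 514 in control and 213, 235 and 276 in treated libraries, all below all controls. It fell by 0.58 ± 0.17 (limma adjusted p = 0.0119). POLRMT, the mitochondrial RNA polymerase, fell by 0.56 (adjusted p = 0.00561). GABPB1, a subunit of the ETS factor GABP, had 293, 348 and 458 in control and 463, 660.03 and 575 in treated libraries, all above all controls, and rose by 0.81 ± 0.17 (limma adjusted p = 0.000546). MTERF3, which represses mitochondrial transcription, rose by 0.81 (adjusted p = 0.000413).

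Of 19 genes of pyruvate oxidation and the citric acid cycle, 3 fell and 2 rose, where 15.2% and 17.2% of all genes did. PDHB of pyruvate dehydrogenase fell by 0.71 (1013, 1148 and 1340 against 677, 625 and 680.4, limma adjusted p = 0.000498) and IDH3G by 0.64 (adjusted p = 0.00198). IDH3A, the catalytic subunit of the same NAD-dependent isocitrate dehydrogenase, rose by 0.66 (368, 398 and 344 against 587, 554 and 680.4, adjusted p = 0.00182), and IDH2, the NADP-dependent enzyme, by 0.57 (adjusted p = 0.00438). Of 16 carriers and uncoupling proteins 4 fell and 0 rose, led by SLC25A11, the oxoglutarate carrier, at -0.70 (limma adjusted p = 0.000878) and SLC25A10, the dicarboxylate carrier, at -0.55 (adjusted p = 0.0367). Of 7 tested genes listed as alternative electron donors or related to them, DHODH of pyrimidine synthesis fell by 0.71 (limma adjusted p = 0.0109). With 6 libraries the changes of SLC25A10 and DHODH were positive, at 0.74 and 0.13. SQOR, which oxidizes sulfide, rose by 0.64 (adjusted p = 0.00198). Without control replicate 2, 13 of the 38 calls over these lists were kept, 7 lower and 6 higher, among them NDUFAF3, COA3, COA6, GABPB1, MTERF3, POLRMT, PDHB, IDH2, IDH3A, IDH3G, SLC25A11 and SQOR but not NRF1 (adjusted p = 0.0818), MT-CO1 (adjusted p = 0.402) or DHODH (adjusted p = 0.0759).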

How the data were processed

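The values analysed are from the table the authors deposited, with 3 control and 3 Caba-780 libraries. Per the labels, the kit for the RNA libraries was NEBNext Ultra. The submitters' processing notes name hg38 as build and, as tools, DESeq2 1.20.0, featureCounts 1.5.0-p3, HISAT2 2.0.5 and fastp. The sources used here do not state settings, strand or annotation. The deposited library columns hold a normalized signal, reads per gene divided by a size factor, and 100% of values gave whole reads at a tolerance of 1e-06. The authors also deposited log2 fold changes with a p-value and adjusted p-value, and a gene length in bases (unit other). Positions and lengths of all 86 members equalled those of GENCODE v29. In 25 rows a symbol turned into a date was looked up again by gene ID.

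Members, gene lists and tests were chosen with earlier results of these data known. The main test was limma 3.58.1 (R 4.3.3) on log2(value + 1), with a trend and robust moderation, two-sided, on genes that reached 10 normalized counts in 3 or more libraries, with Benjamini-Hochberg adjustment over all tested genes and a threshold of 0.05. Fold changes are on this scale, which understates those of low genes. Alternatives on the recovered reads were limma-voom, DESeq2 1.42.0 and the quasi-likelihood test of edgeR 4.0.16, and the fits were tested on simulated data. Other alternatives changed the scaling, filter, pseudocount and replicate block, centred libraries on gene length, or left out each library, and centring on GC content was chosen after seeing the data.

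Libraries had 14591234 to 15983035 reads in genes. A floor of 3 reads equals 2.69 to 3.38 normalized counts and covers counting error only. Chi-square per degree of freedom within groups was 9.10 to 191, and none was treated as a duplicate. Genes named with values were, in each of complexes I, III, IV and V, the 4 most negative and 2 most positive changes without control replicate 3 and the highest level per kb, all SDH genes, CYC1, CYCS, ATP5IF1 and the isoform groups, and in other lists the 2 largest calls in each direction. Other genes were named after their values were seen.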

Additional observations from a re-analysis of the deposited data

How the results depend on the processing

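Calls depended mainly on which control libraries were in. With 6 libraries, members called lower numbered 0 in the main test, 6 with DESeq2 and 2 with GC centring, and from 0 to 40 when 1 library was left out. The median of complex II there was -0.38, -0.25 with library totals, and from -0.45 to -0.25 with 1 library left out. With 1 library left out of 6, log2 changes ranged from -0.52 to 0.48 in ATP5MC2, -0.48 to 0.89 in COX6A1, -0.62 to 0.47 in COX6B1, -0.62 to 0.65 in COX8A and -0.91 to 0.89 in NDUFB7, lowest without control replicate 3 and highest without control replicate 2.

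Without control replicate 3, leaving out 1 more library gave from 4 to 47 members lower, from 1 to 18 in complex I, 0 to 1 in II, 0 to 6 in III, 0 to 9 in IV and 3 to 13 in V. In those fits with 1 control the lone control was assumed to vary like the treated libraries. Leaving out a treated library gave 31 to 47 members lower, where 12.3% to 15.3% of all genes were lower. Library totals gave 25 lower and 1 higher (CYCS), with 7, 4 and 7 lower in complexes I, III and V, and 1330 of all genes lower against 2950 higher, where the main scaling gave 2077 and 2359. No filter gave 1 higher (NDUFA4L2), length centring 3 lower in complex III, and GC centring 2 lower in complex II. TMM, upper-quartile scaling, 5 CPM, pseudocounts of 0.5 and 5, edgeR, DESeq2 and limma-voom gave 37 to 40 lower. In those settings 14% to 18% of all genes were lower. For named genes, settings that kept all libraries were compared with the main test. Results counted as unchanged 512 times with 6 libraries, with 7 new calls. Without control replicate 3 they did so 498 times, with 17 calls lost and 4 new. An uncalled gene whose change crossed 0 by a shift smaller than its SE was also counted as unchanged. The causes were not tested.

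Whether replicate numbers pair the libraries could not be told. Same-number correlations of deviations from the group means were 0.30, -0.33 and -0.10. The control mean includes control replicate 3, and control replicates 1 and 2 correlated almost alike with treated replicate 1 (0.30 and 0.27). With the replicate block and 6 libraries, 0 members passed, as did 0 of all genes. With the block and without control replicate 3, 45 members were lower, 36 of them among the 40. In that fit 12.9% of all genes were lower. The 6 untested genes had too few reads for the filter, and the falls without control replicate 3 are measured from 2 controls that differ.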
